A study of Rattus norvegicus with 6 samples.

Results

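Protein kinases of the MAPK, PKA, PKC and calmodulin-dependent families were followed in rat fibroblasts across 2 lines and a DNA demethylating drug. The members were the genes whose symbol starts with Mapk, Map2k, Map3k, Map4k, Prka, Prkc, Camk or Rps6k among probe sets that map to exactly 1 gene. They were 33 of 2890 named genes, measured by 54 of 4818 probe sets, and each gene was read from its brightest probe set by the mean over 6 arrays. The prefixes also take in kinases that MAP kinases activate (Mapkapk2, Mapkapk3), subunits of the AMP-activated kinase AMPK (Prkaa1, Prkab1, Prkag1) and the ribosomal S6 kinase Rps6kb1.

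208F is an immortal line and FE8 is the HRAS-transformed line derived from it, so transformation is represented by a single line. The 4 groups were 208F without treatment (n = 1), FE8 without treatment (n = 1) and, after 96 h in 0.3 µM of the drug 5-aza-2'-deoxycytidine, treated 208F (n = 2) and treated FE8 (n = 2). The drug, a cytidine analogue that traps DNA methyltransferases, leaves newly made DNA with less methylation. Whether the duplicates were separate cultures is not given in the sources used here, so p-values measure how far these samples spread, and that spread may be technical.

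In a MAPK cascade, a MAP3K phosphorylates a MAP2K, which in turn phosphorylates a MAP kinase. RAS starts the best known cascade, through MEK1 and MEK2 to the ERK kinases, while stress and cytokine signals act through the JNK and p38 branches. PKA answers to cyclic AMP, most PKC isoforms to diacylglycerol with or without calcium, and the calmodulin kinases to calcium bound to calmodulin. All of these are controlled mainly at the level of protein activity, which a transcript array does not read.

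Median signals of the whole arrays lay between 354 and 422, and those of the 33 kinase genes between 254 and 336. By scan date, called run day here, the untreated arrays came on a first day with chips of lot 1. 208F treated replicate 1 came on another day with lot 2 and the other 3 treated arrays on a later day with lot 3. So drug and run day cannot be told apart. FE8 treated replicate 2 also has run settings of a second scan, and which scan gave its values is not known here. The ratio of 5' to 3' signal for beta-actin, a sign of RNA quality, was 0.824 in untreated 208F and 0.351 to 0.529 on the other arrays. For GAPDH it was 0.916 and 0.691 on the untreated arrays and 1.01 to 1.132 on the 4 treated arrays, so this ratio separated the drug states. Summed signals of 10 of 13 fibroblast markers were 73153 to 116215 in 208F and 48901 to 60735 in FE8. Of the 10 markers, 5 (the collagen genes Col1a1, Col1a2, Col3a1 and Col5a2, and Fn1) were lower in FE8 in both drug states and 5 did not pass. Of the latter, Pdgfra, Thy1 and S100a4 were at 859, 3635 and 20185 in untreated 208F and 1246, 4342 and 23151 in untreated FE8. Vim and Sparc lay the other way, at 18849 and 11833 in untreated 208F and 16158 and 6913 in untreated FE8. Summed signals of 3 of 5 epithelial markers were 145 and 168 untreated and 3039 to 4418 treated, mostly Krt8, and those of 3 of 5 skeletal muscle markers were 35 and 386 untreated and 412 to 2587 treated. The 2 of 5 neuronal markers summed to 82 to 344, the 1 of 4 endothelial markers lay between 2 and 84, and 0 of 4 leukocyte markers were measured. No marker was at 0, and the part of run day, RNA quality or other cell types in the line and drug differences below was not tested.

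The drug leaves newly made DNA with less methylation, a mark that sits mostly on CpG dinucleotides. For this reason the promoters of the 4 kinase genes that passed a test in a designed comparison are shown. Each CpG is in capitals, read 5′ to 3′. Each holds 250 bases before and 50 after the annotated start (RefSeq, GRCr8).
Mapk6 promoter, chr8:85050187-85050486, minus strand: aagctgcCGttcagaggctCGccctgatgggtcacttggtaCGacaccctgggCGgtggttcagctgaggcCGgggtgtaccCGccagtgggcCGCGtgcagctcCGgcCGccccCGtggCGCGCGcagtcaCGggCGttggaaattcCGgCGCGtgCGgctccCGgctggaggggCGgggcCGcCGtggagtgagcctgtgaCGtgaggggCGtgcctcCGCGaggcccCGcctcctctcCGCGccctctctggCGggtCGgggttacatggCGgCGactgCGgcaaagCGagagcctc
Map2k2 promoter, chr7:9260749-9261048, minus strand: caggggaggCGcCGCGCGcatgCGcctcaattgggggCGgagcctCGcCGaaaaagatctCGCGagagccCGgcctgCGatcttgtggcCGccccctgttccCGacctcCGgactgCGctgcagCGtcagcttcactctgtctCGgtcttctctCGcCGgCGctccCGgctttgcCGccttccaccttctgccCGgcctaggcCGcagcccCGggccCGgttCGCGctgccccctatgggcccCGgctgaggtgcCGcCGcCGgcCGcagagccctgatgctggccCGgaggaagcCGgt
Map3k1 promoter, chr2:45147969-45148268, minus strand: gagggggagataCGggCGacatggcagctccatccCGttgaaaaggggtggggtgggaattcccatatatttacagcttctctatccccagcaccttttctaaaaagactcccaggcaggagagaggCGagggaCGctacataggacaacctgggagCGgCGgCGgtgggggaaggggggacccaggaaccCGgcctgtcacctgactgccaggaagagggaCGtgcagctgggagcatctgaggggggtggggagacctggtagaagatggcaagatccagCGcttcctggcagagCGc
Map3k12 promoter, chr7:135526223-135526522, minus strand: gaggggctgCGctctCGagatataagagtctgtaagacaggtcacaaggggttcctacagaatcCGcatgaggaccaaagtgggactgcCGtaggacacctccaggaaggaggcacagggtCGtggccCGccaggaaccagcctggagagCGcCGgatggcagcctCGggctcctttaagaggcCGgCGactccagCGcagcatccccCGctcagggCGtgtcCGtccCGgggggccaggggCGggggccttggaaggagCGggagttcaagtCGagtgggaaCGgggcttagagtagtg
Mapk6 held 37 CpGs in 300 bases, Map2k2 36, Map3k12 20 and Map3k1 12. The median over the 29 of 33 kinase genes with a promoter in the table was 24, with a range from 1 (Camk1g) to 59 (Camk2b), against 7 over 33469 promoters and 21 over the promoters of 2432 measured genes. A GC box (GGGCGG, either strand) stood in 21 of 29 kinase promoters, or 72.4%, against 33.1% of all promoters and 63.8% of those of measured genes. The cyclic AMP response element TGACGTCA and the AP-1 site TGANTCA, each searched on both strands, were in 0 of 29, against 1.83% and 7.33% of all promoters and 2.71% and 5.47% of those of measured genes. Methylation itself was not analysed here.

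**Figure D1:**
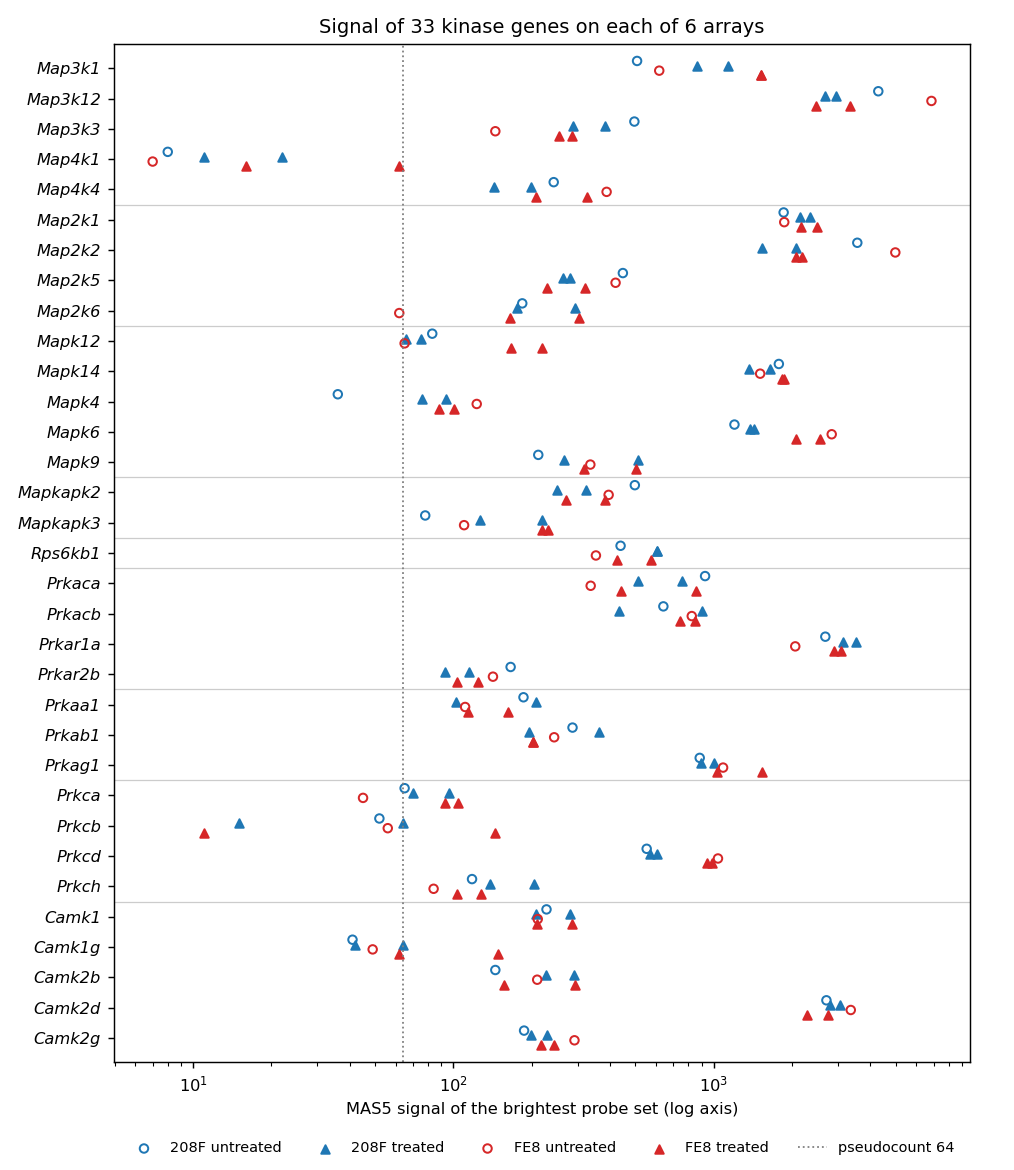
MAS5 signal (log axis) of the brightest probe set of each of 33 kinase genes, with 1 point per array, ordered by role; circles are untreated and triangles treated arrays, blue is 208F and red FE8. The 3 FE8 points of Mapk6 and of Prkcd lie to the right of all 208F points, while Map2k2 and Map3k12 have both untreated points to the right of all treated ones.

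The line comparison asks which kinase transcripts differ between the HRAS-transformed and the immortal fibroblasts. Mapk6 was the only member that passed the test without the drug, where it was higher in FE8, and none passed it in the treated cells. Mapk6 encodes ERK3, an atypical MAP kinase that lacks the usual paired phosphorylation motif of its activation loop and is regulated largely through its short protein half-life. Its signal was 1202 without and 1431 and 1376 with the drug in 208F, against 2841 without and 2068 and 2565 with it in FE8. All 3 FE8 arrays were above all 3 208F arrays. On the log2(signal + 64) scale used throughout, FE8 exceeded 208F by 1.20 ± 0.31 without the drug (SE, 95% interval 0.51 to 1.89, limma adjusted p = 0.0484) and by 0.69 ± 0.22 under it (0.20 to 1.18, limma adjusted p = 0.103). Within chip lot 3, which leaves 1 treated 208F array (replicate 2) and takes the error from the FE8 duplicates alone, the treated difference was 0.72 (limma adjusted p = 0.0451). It did not pass without 208F treated replicate 2 (0.66, limma adjusted p = 0.067) or without FE8 treated replicate 1 (0.84, limma adjusted p = 0.325) or replicate 2 (0.54, limma adjusted p = 0.596).

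The second Mapk6 probe set ran the same way, at 535 without and 502 and 628 with treatment in 208F, while FE8 gave 1151 without and 903 and 1058 with it. Its differences were 1.02 without the drug (limma adjusted p = 0.145) and 0.74 under it (limma adjusted p = 0.121). Averaged over both drug states, a comparison added after the values were seen, Mapk6 was higher in FE8 by 0.94 ± 0.19 (limma adjusted p = 0.00778), and both of its probe sets passed. The untreated call of Mapk6 was lost in 8 of 11 alternatives with adjusted p between 0.0506 and 0.19, among them the fits without FE8 treated replicate 1 (0.19) or replicate 2 (0.186), where only the 208F duplicates are left to give the error. The averaged call was lost without the same replicates, at 0.0618 and 0.099.

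Prkcd encodes PKC delta, a calcium-independent isoform with roles in apoptosis and the DNA damage response. Its signal was 553 (untreated), 568 and 604 (treated) in 208F and 1039 (untreated), 989 and 947 (treated) in FE8. The lines did not overlap, and within each line the arrays lay close together. The difference did not pass the test in either drug state alone, at 0.84 ± 0.33 without the drug (0.11 to 1.57, limma adjusted p = 0.224) and 0.67 ± 0.23 under it (0.15 to 1.18, limma adjusted p = 0.144). Averaged over both states it did, at 0.75 ± 0.20 (limma adjusted p = 0.036). That call was lost without FE8 treated replicate 1 (0.165) or replicate 2 (0.149), with quantile normalization (0.0666) and without the variance trend (0.0683). The dimmer Prkcd probe set, at 300, 234 and 357 in 208F and 359, 463 and 501 in FE8, showed an averaged difference of 0.42 that did not pass.

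The call of Mapk6 made 1 of 33 kinase genes without the drug, or 3.03%, against 5.92% of all probe sets, and 0 of 33 under it, against 7.08%. At an unadjusted p under 0.05, 4 kinase genes (12.1%) were counted in each state, against 15.7% and 17.1% of all probe sets. In the average, Mapk6 and Prkcd made 6.06% of the kinase genes, both higher in FE8, against 5.71% of all probe sets called higher and 11.1% called in either direction. The median difference of the 33 genes was 0.01 without the drug and 0.09 under it, beside 0.02 and 0.00 over all probe sets. Differences under 0.5 made up 66.7% of the kinase genes without the drug, against 64.7% of all probe sets, and 87.9% under it, against 75.9%. Mapk6, Prkcd and Prkag1 were the 3 members with every FE8 array above every 208F array (9.09%, against 8.55% of all probe sets). Map3k3 was the 1 member with every FE8 array below (3.03%, against 9.53%).

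Map3k3 encodes MEKK3, a MAP3K that feeds the ERK5, p38 and JNK branches. Its signal was 496 without and 384 and 288 with the drug in 208F, against 145 without and 286 and 254 with it in FE8. The gap was wide between the untreated arrays and small between the treated ones, where 288 and 286 nearly touch. The difference was -1.42 ± 0.41 without the drug (-2.33 to -0.51, limma adjusted p = 0.0804) and -0.25 ± 0.29 under it (limma adjusted p = 0.83). This untreated value compares 1 array with 1 and stays at -1.42 whichever treated replicate is left out, so only its error changes. The limma adjusted p was 0.0281 and 0.028 with the error from the FE8 duplicates alone and 0.19 with the error from the 208F duplicates alone.

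Prkaca encodes the main catalytic subunit of PKA. Its signal was 927 without and 512 and 758 with treatment in 208F, while FE8 gave 337 without and 441 and 852 with it. Untreated FE8 was the lowest array and untreated 208F the highest, while the treated groups overlapped. The difference was -1.31 ± 0.46 without the drug (-2.31 to -0.30, limma adjusted p = 0.162) and -0.02 ± 0.32 under it. With the untreated value fixed, its limma adjusted p was 0.00887 and 0.0121 when a 208F treated replicate (1 or 2) was left out and the FE8 duplicates gave the error. It was 0.233 when an FE8 treated replicate was left out and the 208F duplicates gave it. The other Prkaca probe set gave only -0.18 without the drug, with signals of 246, 465 and 242 in 208F and 209, 438 and 314 in FE8.

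Among the other MAP kinases, Mapk12 (p38 gamma, an isoform best known from muscle) stood lower in 208F and untreated FE8 than in treated FE8. Its signal was 83 (untreated), 66 and 75 (treated) in 208F and 65 (untreated), 220 and 167 (treated) in FE8, so that 4 arrays lay near the pseudocount of 64. The line difference under the drug was 0.93 ± 0.32 (0.23 to 1.63, limma adjusted p = 0.131). The summed skeletal muscle markers were lower in treated FE8 than in treated 208F, at 412 and 598 against 2047 and 2587. Mapk4 (ERK4, the closest relative of ERK3) lay at 36 without and 76 and 94 with the drug in 208F, against 123 without and 88 and 101 with it in FE8, with an untreated line difference of 0.90 ± 0.45 (limma adjusted p = 0.381). Mapk9 (JNK2) and Mapk14 (p38 alpha) had untreated line differences of 0.54 ± 0.49 and -0.23 ± 0.31, and neither passed.

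**Figure D2:**
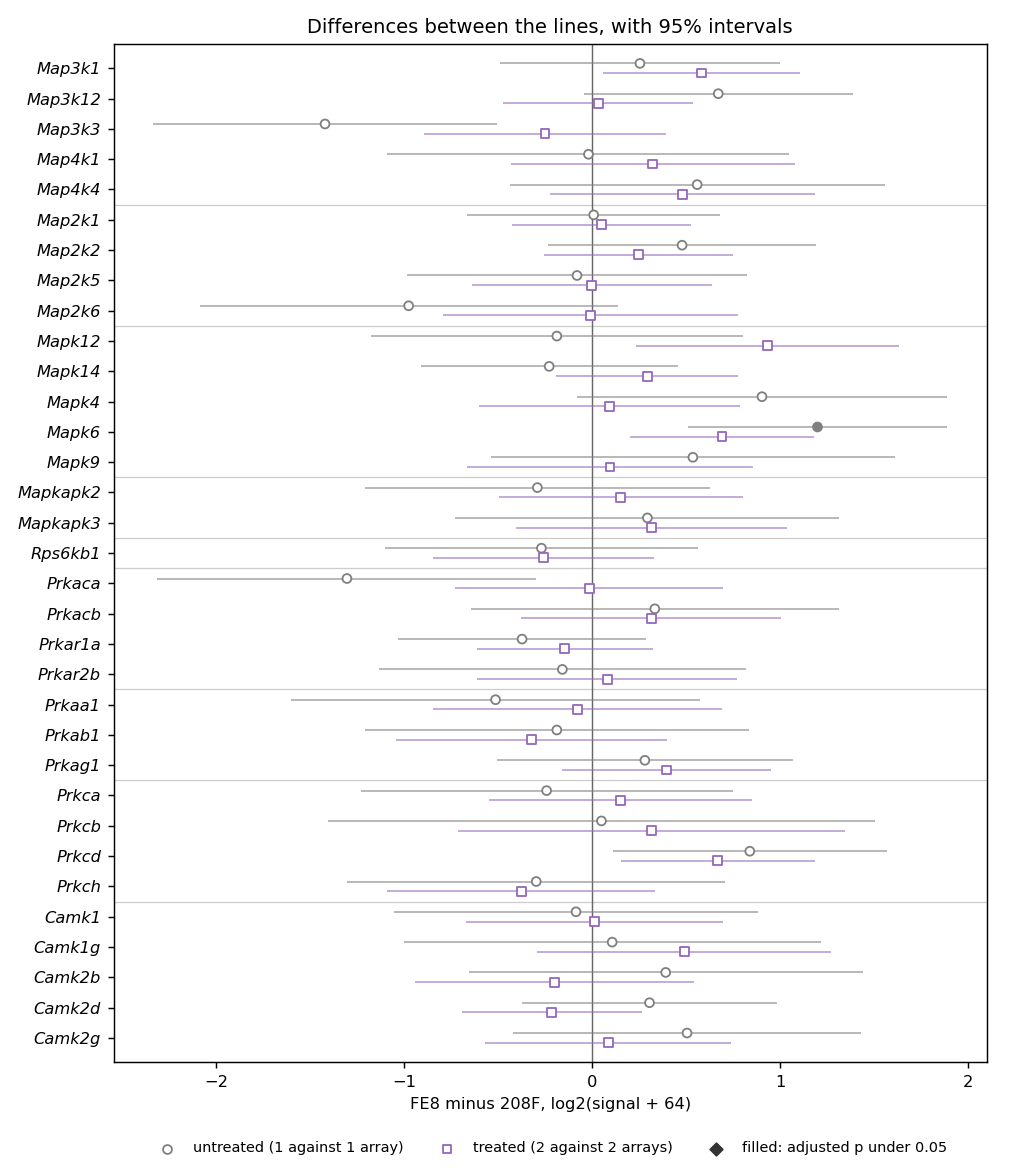
FE8 minus 208F on the log2(signal + 64) scale for 33 kinase genes, untreated (grey circles, 1 against 1 array) and treated (purple squares, 2 against 2 arrays), with 95% intervals of the limma fit. Mapk6 without the drug, at 1.20, is the only filled symbol (adjusted p under 0.05), and Map3k3 and Prkaca have the most negative untreated values.

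The drug comparison asks which kinase transcripts differ between treated and untreated arrays in each line. In FE8, 3 members passed: Map3k1 rose, and Map2k2 and Map3k12 fell. In 208F none passed, while the differences of these 3 genes had the same sign. Map3k1 and Map3k12 stand at the top of the cascades and Map2k2 in the middle of the ERK cascade.

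Map2k2 encodes MEK2, which with MEK1 phosphorylates the ERK kinases. Its signal was 3563 without and 2074 and 1528 with treatment in 208F, while FE8 gave 4987 without and 2072 and 2180 with it. Both untreated arrays were above all 4 treated arrays. Map2k2 fell by 1.21 ± 0.28 in FE8 (interval -1.82 to -0.59, limma adjusted p = 0.0241), and in 208F the difference was -0.98 ± 0.28 (-1.59 to -0.36, limma adjusted p = 0.0765). Other probe sets of Map2k2 were measured too, and all 3 were lower in treated arrays of both lines. One of them fell by 1.14 in FE8 (limma adjusted p = 0.0246) and by 1.16 in 208F (limma adjusted p = 0.0295), with signals of 2360, 1047 and 994 in 208F and 2931, 1224 and 1371 in FE8. The other gave -0.53 and -0.84 and did not pass.

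Map2k1, which encodes the partner kinase MEK1, did not pass. Its signal was 1857 (untreated), 2153 and 2348 (treated) in 208F and 1867 (untreated), 2169 and 2501 (treated) in FE8. The treated arrays lay slightly above the untreated ones in both lines. The differences were 0.27 ± 0.26 in 208F (-0.31 to 0.85) and 0.31 ± 0.26 in FE8 (-0.27 to 0.89), with limma adjusted p of 0.682 and 0.563. Between the lines Map2k1 differed by 0.01 ± 0.31 untreated and 0.05 ± 0.22 treated. Its other probe sets gave untreated line differences of -0.34 and -0.69 and FE8 drug differences of 0.81 and 0.49 (limma adjusted p = 0.134 and 0.562), and in 208F the drug differences were 0.12 and -0.31. The difference between Map2k1 and Map2k2 was not tested.

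Map3k1 encodes MEKK1, a MAP3K and ubiquitin ligase that acts mainly on the JNK branch. Its signal was 508 without and 1135 and 866 with the drug in 208F, against 618 without and 1514 and 1519 with it in FE8. Every treated array was above both untreated arrays, and treated FE8 was above treated 208F. Map3k1 rose by 1.21 ± 0.29 in FE8 (0.57 to 1.86, limma adjusted p = 0.0286), and in 208F the difference was 0.88 ± 0.29 (0.24 to 1.53, limma adjusted p = 0.126). A second probe set rose by 1.35 in FE8 (limma adjusted p = 0.0385), with signals of 189, 344 and 319 in 208F and 169, 477 and 585 in FE8. The third gave 0.55 in FE8 and 0.47 in 208F and did not pass. With all arrays set to a common median, the rise of Map3k1 in FE8 was 1.09 and did not pass (limma adjusted p = 0.0638).

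Map3k12 encodes DLK, a MAP3K of the JNK branch studied mostly in neurons, where it carries the response to axon injury. Its signal was 4290 without and 2950 and 2671 with treatment in 208F, while FE8 gave 6865 without and 2479 and 3329 with it. Untreated FE8 was the highest array, and the treated arrays of both lines overlapped. Map3k12 fell by 1.24 ± 0.28 in FE8 (-1.86 to -0.62, limma adjusted p = 0.0222), and in 208F the difference was -0.60 ± 0.28 (-1.22 to 0.02, limma adjusted p = 0.297). It was measured by 1 probe set. The summed neuronal markers, 192 and 82 in the untreated and 89 to 344 in the treated arrays, gave no single order of treated and untreated arrays.

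These 3 genes were 9.09% of the kinase genes in FE8, against 8.16% of all probe sets called there. The 2 that fell made 6.06%, against 3.09%, and the 1 that rose 3.03%, against 5.06%. Among all probe sets 244 were called higher and 149 lower in FE8, and with a common median 183 and 166. In 208F 0 of 33 passed, against 5.19% of all probe sets, and 2 of 33 (6.06%) had an unadjusted p under 0.05, against 17.7%. In FE8 5 of 33 (15.2%) did, against 21.3%. Averaged over the lines, the same 3 genes passed (9.09%, against 15.6%), Map2k2 at -1.09 ± 0.20, Map3k12 at -0.92 ± 0.20 and Map3k1 at 1.05 ± 0.21, with limma adjusted p of 0.00393, 0.0104 and 0.0061. This average was added after the values were seen.

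The calls in FE8 were lost when either of its treated replicates was left out, where the 208F duplicates alone give the error. These 208F duplicates were scanned on different days with chips of different lots. Without FE8 treated replicate 1 the adjusted p of Map2k2, Map3k1 and Map3k12 were 0.258, 0.234 and 0.293, and without replicate 2 they were 0.194, 0.194 and 0.131, with log2 differences between 1.03 and 1.45 in size. The averaged calls of these genes were lost in the same fits, with adjusted p of 0.0566 to 0.117. In 208F, leaving out a treated replicate compares 1 treated with 1 untreated array, with the error from the FE8 duplicates alone. The FE8 duplicates were scanned on the same day with chips of the same lot. So this error holds no variation between scan days or lots, which the comparison crosses. Map2k2 then gave -1.19 without replicate 1 (limma adjusted p = 0.000342) and -0.76 without replicate 2 (0.0534). Map3k1 gave 0.70 without replicate 1 (limma adjusted p = 0.187) and 1.07 without replicate 2 (0.0247). Without an FE8 treated replicate the 208F differences of both genes had limma adjusted p of 0.251 to 0.295.

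**Figure D3:**
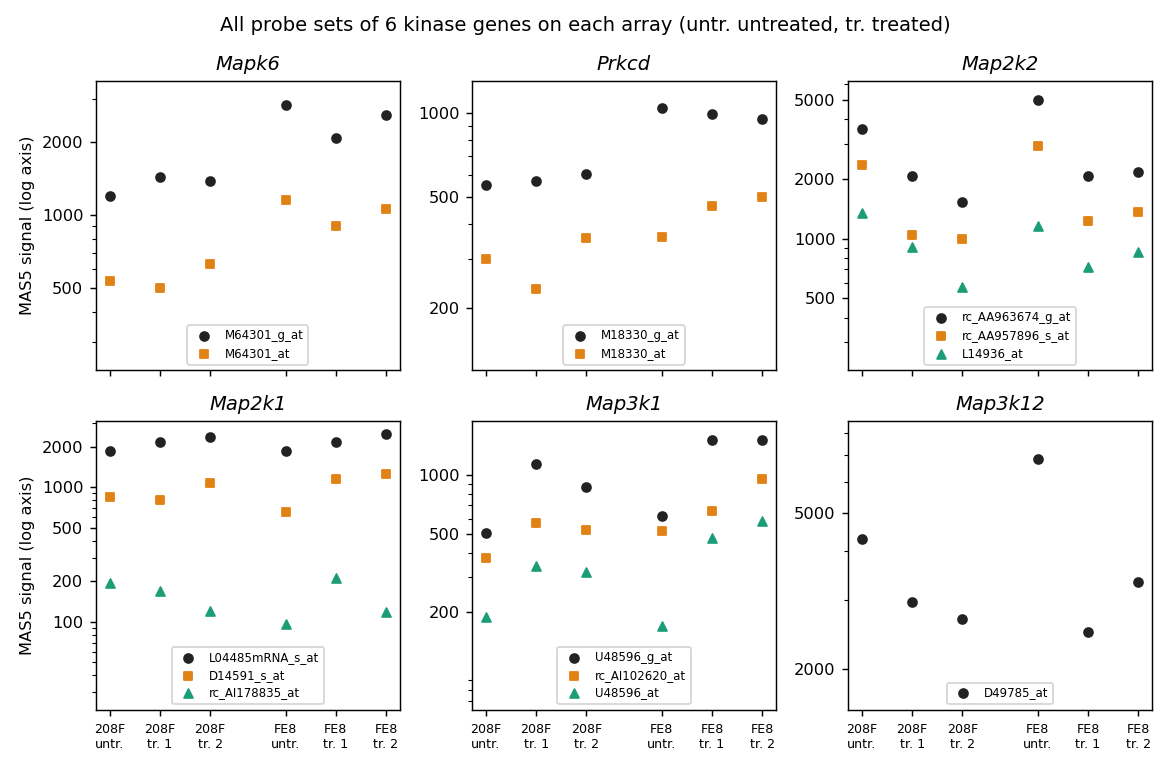
MAS5 signal (log axis) of every probe set of Mapk6, Prkcd, Map2k2, Map2k1, Map3k1 and Map3k12 on each of 6 arrays (untr. untreated, tr. treated). All 3 probe sets of Map2k2 are lower in treated than in untreated arrays of the same line and all 3 of Map3k1 are higher, while the third probe set of Map2k1 is lower in treated 208F.

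Map2k6 encodes MKK6, an activator of p38. Its signal was 184 (untreated), 294 and 175 (treated) in 208F and 62 (untreated), 305 and 165 (treated) in FE8. Untreated FE8 was low, at the pseudocount, and the treated groups overlapped. The drug difference was 1.21 ± 0.44 in FE8 (0.24 to 2.17, limma adjusted p = 0.13) and 0.24 ± 0.44 in 208F. The FE8 value stayed at 1.21 without 208F treated replicate 1 or 2. There the FE8 duplicates, scanned on the same day and of the same lot, alone give the error. Without FE8 treated replicate 1 the FE8 value was 0.86 and without replicate 2 it was 1.55. Without the drug FE8 differed from 208F by -0.98 ± 0.51 (limma adjusted p = 0.411). Map2k5, which encodes the MEK5 of the ERK5 branch, was lower in all treated arrays, at 448 untreated against 280 and 264 in 208F and 420 against 320 and 229 in FE8. Its differences were -0.61 ± 0.36 and -0.53 ± 0.36, and neither passed.

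The 2 MAP kinase-activated kinases, which p38 switches on, lay on opposite sides. Mapkapk2 (MK2, a regulator of the stability of cytokine mRNAs) was at 498 without and 322 and 250 with the drug in 208F, against 395 without and 384 and 270 with it in FE8. Mapkapk3 (MK3) was at 78 without and 219 and 127 with treatment in 208F, while FE8 gave 110 without and 231 and 220 with it. All treated arrays were below the untreated ones for Mapkapk2 and above them for Mapkapk3. The drug differences of Mapkapk2 were -0.69 ± 0.36 in 208F and -0.25 ± 0.36 in FE8 (limma adjusted p = 0.368 and 0.763). Those of Mapkapk3 were 0.71 ± 0.40 and 0.73 ± 0.40 (limma adjusted p = 0.406 and 0.333).

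Treated and untreated arrays did not overlap for 11 members in all. The treated arrays were all higher for Map3k1, Mapkapk3, Map2k1, Map4k1, Prkar1a and Prkca, or 18.2% of the kinase genes, against 18.6% of all probe sets. They were all lower for Map2k2, Map3k12, Map2k5, Mapkapk2 and Prkar2b, or 15.2%, against 12.5%. The median drug difference of the 33 genes was 0.09 in 208F and 0.20 in FE8, beside 0.11 and 0.08 over all probe sets. Setting the arrays to a common median moved the latter to -0.03 and -0.04, and those of the kinase genes to -0.05 and 0.07, so the sign of the 208F median changed with the scaling.

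**Figure D4:**
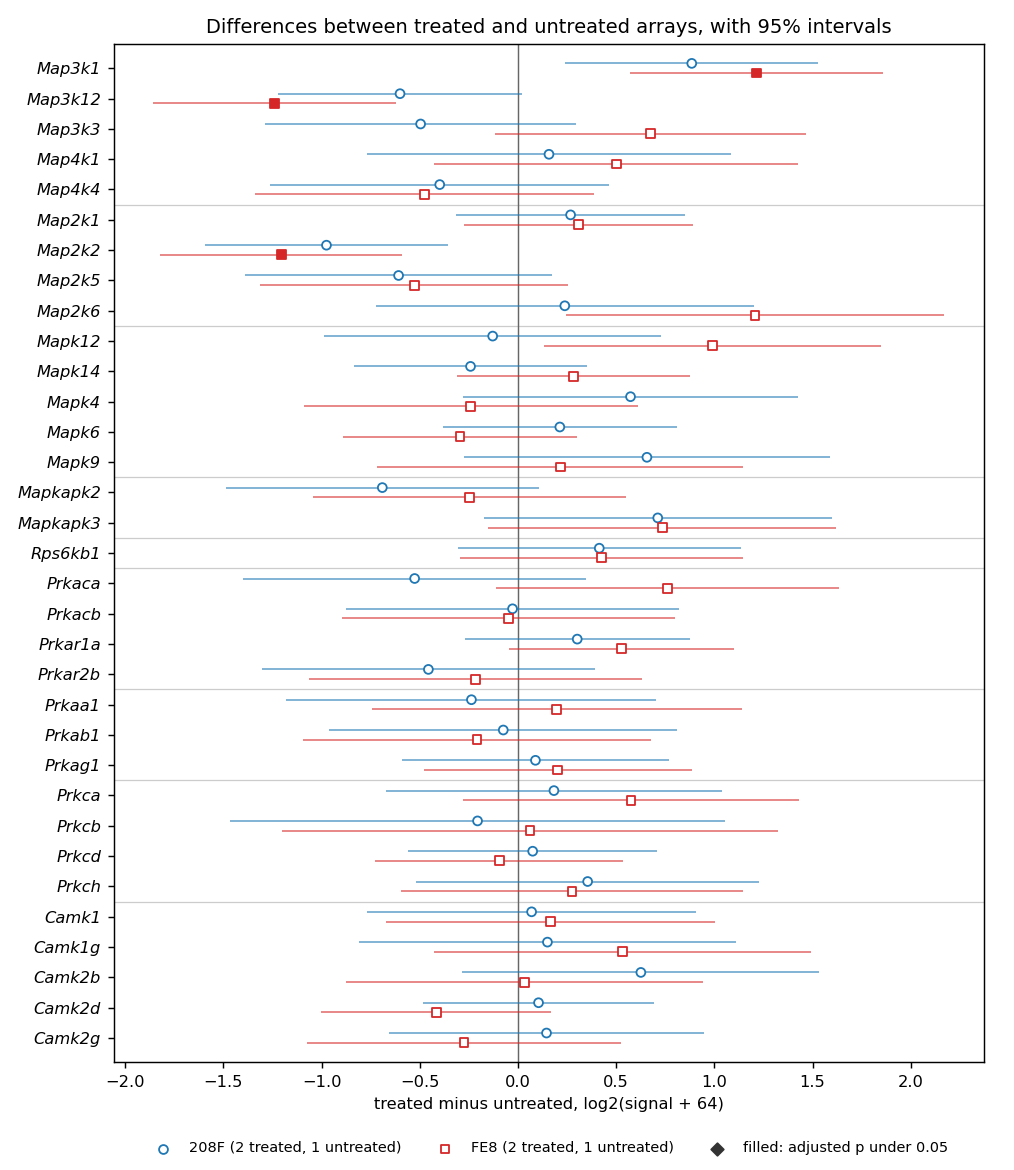
Treated minus untreated on the log2(signal + 64) scale for 33 kinase genes in 208F (blue circles) and FE8 (red squares), 2 treated against 1 untreated array each, with 95% intervals of the limma fit. Filled symbols (adjusted p under 0.05) are Map3k1, Map3k12 and Map2k2 in FE8, at 1.21, -1.24 and -1.21.

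Whether the drug acted differently in the lines was tested directly. No kinase gene passed (0 of 33, against 0.0623% of all probe sets), and 2 of 33 (6.06%) had an unadjusted p under 0.05, against 7.56%. The widest differences, FE8 minus 208F, were 1.29 ± 0.56 for Prkaca (0.05 to 2.52), 1.17 ± 0.51 for Map3k3 (0.05 to 2.29) and 1.12 ± 0.55 for Mapk12, with limma adjusted p of 0.623, 0.623 and 0.727. For the genes called in FE8 alone, the differences were -0.64 ± 0.40 for Map3k12, 0.33 ± 0.41 for Map3k1 and -0.23 ± 0.40 for Map2k2, so a different response in the lines was not shown. Treated arrays lay on opposite sides of the untreated array in the lines for 9 genes, 4 up in FE8 (12.1%, against 5.71% of all probe sets) and 5 up in 208F (15.2%, against 6.27%), and none of these passed the test of the difference.

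Among the PKA subunits, Prkar1a encodes the type I regulatory subunit that holds the catalytic subunits inactive until cyclic AMP binds. Its signal was 2685 (untreated), 3507 and 3150 (treated) in 208F and 2058 (untreated), 2899 and 3096 (treated) in FE8. Treated arrays were above untreated ones, with differences of 0.30 ± 0.26 in 208F and 0.53 ± 0.26 in FE8 (limma adjusted p = 0.634 and 0.279). Prkacb, the other catalytic subunit measured, ranged from 432 to 900 with both extremes in the treated 208F duplicates. Prkar2b ranged from 93 to 166, and neither passed in a designed comparison. The AMPK subunits Prkaa1, Prkab1 and Prkag1, of a kinase that senses low cellular energy, ranged from 102 to 207, from 196 to 363 and from 884 to 1535. Prkag1 had an averaged line difference of 0.34 ± 0.22 (limma adjusted p = 0.447).

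Among the PKC isoforms other than Prkcd, Prkca (PKC alpha, a calcium-dependent isoform) was at 65 without and 70 and 96 with the drug in 208F, against 45 without and 93 and 104 with it in FE8. All values lay near the pseudocount, and the drug difference in FE8 was 0.58 ± 0.39 (limma adjusted p = 0.457). Prkcb (PKC beta) gave 64 and 15 in the treated 208F duplicates and 145 and 11 in those of FE8, so its duplicates disagreed more than the groups. Prkch (PKC eta) ranged from 84 to 204 without passing.

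Among the calmodulin kinases, Camk2d encodes the delta isoform of CaMKII, the multifunctional calcium-dependent kinase. Its signal was 2711 without and 2796 and 3048 with treatment in 208F, while FE8 gave 3363 without and 2741 and 2286 with it. Untreated FE8 was the highest array and the lines overlapped. The drug difference was 0.10 ± 0.27 in 208F and -0.42 ± 0.27 in FE8 (limma adjusted p = 0.425 in FE8). Its 4 probe sets disagreed in FE8, where 2 were higher and 2 lower in treated arrays, from -0.42 to 0.66, while all 4 were higher in treated 208F. Camk2b ranged from 145 to 294, Camk2g from 187 to 292, Camk1 from 208 to 285 and Camk1g from 41 to 148, and none of these passed in any of the 5 designed comparisons.

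Of the remaining kinases, Map4k4 (HGK, which acts above MAP3Ks of the JNK branch) was at 243 (untreated), 143 and 198 (treated) in 208F and 388 (untreated), 207 and 326 (treated) in FE8. FE8 and 208F overlapped, and the treated arrays did not separate from the untreated ones. Map4k1 (HPK1, best known from blood cells) stayed at 7 to 62, below the pseudocount on every array. Rps6kb1 (S6K1, which acts in the mTOR pathway) was at 439 without and 605 and 607 with the drug in 208F, against 353 without and 574 and 427 with it in FE8. Its drug differences were 0.41 ± 0.33 and 0.42 ± 0.33, and its second probe set differed in sign in FE8, at -0.22.

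Lists of pathway partners were read in the same fit. Of the genes at the level of RAS, above the MAP2Ks, 18 of 39 genes were measured: 1 was higher in FE8 without the drug (Rasa2, a RAS GTPase-activating protein) and 1 fell with the drug in FE8 (Pebp1, a phosphatidylethanolamine-binding protein). Over all probe sets 5.92% and 8.16% were called in these comparisons, a share near that of 1 gene in 18. Rasa2 was at 253, 320 and 246 in 208F, with the untreated array first, and at 864, 340 and 318 in FE8, and it differed by 1.55 ± 0.40 without the drug (limma adjusted p = 0.0449). Pebp1 was at 3928, 1826 and 2194 in 208F and 4604, 2026 and 1931 in FE8. It fell by 1.19 ± 0.27 in FE8 (limma adjusted p = 0.0199), and in 208F the difference was -0.95 ± 0.27 (limma adjusted p = 0.0686). The median of this list was 0.02 for the untreated line difference and -0.08 for the drug difference in FE8, beside 0.02 and 0.08 over all probe sets.

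Of the MAPK phosphatases, which remove the activating phosphates from MAP kinases, 10 of 20 were measured. Dusp6 and Dusp5, both ERK phosphatases, were higher in FE8 in both drug states, and Dusp6 and Dusp1 rose with the drug in 208F and Dusp1 in FE8. So 2 of 10 passed in each line comparison, 2 in the drug comparison of 208F and 1 in that of FE8. Over all probe sets 5.92% and 7.08% were called in the line comparisons without and under the drug. In the drug comparisons of 208F and FE8 the shares were 5.19% and 8.16%. No measured member of this list passed in the opposite direction in the 5 designed comparisons. In the line average, added after the values were seen, Dusp1 was lower in FE8, at -0.73 ± 0.21 (limma adjusted p = 0.0499). Dusp6 was at 436, 1533 and 2156 in 208F and 4313, 6631 and 6241 in FE8, Dusp5 at 399, 840 and 762 in 208F and 2123, 3032 and 3375 in FE8, with line differences of 3.13 ± 0.33 and 2.24 ± 0.31 without the drug (limma adjusted p = 0.000185 and 0.00131). Dusp1 was at 716, 2562 and 3044 in 208F and 403, 1416 and 1990 in FE8, with drug differences of 1.87 ± 0.30 and 1.90 ± 0.30 (limma adjusted p = 0.00455 and 0.00284). The list's median untreated line difference was 0.09, beside 0.02 over all probe sets.

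Of the genes of cyclic AMP handling and PKA partners, 17 of 42 were measured, and 1 was lower in FE8 in both drug states, Pde4b, a phosphodiesterase that degrades cyclic AMP. Its signal was 637, 359 and 321 in 208F and 18, 134 and 56 in FE8, with differences of -3.10 ± 0.48 and -1.39 ± 0.34 (limma adjusted p = 0.00274 and 0.0322). Of PKC activators and substrates, 16 of 27 were measured, and 1 was higher in FE8 in both states, Plcd4, a phospholipase C that makes diacylglycerol. It was at 4, 82 and 72 in 208F and 1235, 527 and 471 in FE8, with differences of 4.26 ± 0.42 and 2.00 ± 0.30 (limma adjusted p = 0.000118 and 0.00144). Neither list had a member that passed in the drug comparison of either line. Of calmodulin and its other targets, 10 of 25 were measured and 0 passed in the 5 designed comparisons with limma. With 5.92% and 7.08% of all probe sets called in the line comparisons, these counts of 1 of 17, 1 of 16 and 0 of 10 lie near the background.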

How the data were processed

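The 6 rat fibroblast RNA samples were measured on Affymetrix rat genome arrays. The deposited values are the authors' linear signal intensity for each probe set, made with MAS5 per the submitters' processing notes (version and settings not given in the sources used here) and rounded to whole numbers. Chip lot and run day, which is the day of the scan, come from the deposited run settings. Column means lay between 1258 and 1389.5, so no further scaling was applied. The deposited table held 4847 probe sets, and how these were selected is not given in the sources used here. Of them, 29 controls were left out, so shares of all probe sets refer to the remaining 4818. GEO's platform annotation, with names checked against RefSeq (GRCr8, 3942 probe sets matched by gene ID), gave 1 gene for 3956 probe sets, several for 207 and none for 655. Detection calls were not used here, and signals near 64 are read as low.

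The deposited intensities were transformed as log2(signal + 64), 64 being the 10th percentile of all values. limma 3.58.1 in R 4.3.3 fitted 4 group means over 6 arrays (2 residual and 9.02 prior degrees of freedom, variance trend), with untreated arrays assumed to vary like the treated duplicates. Tests were 2-sided, adjusted by Benjamini-Hochberg over 4818 probe sets within each comparison, with a threshold of 0.05. The script was tested on simulated data. Members and pathway lists were chosen with earlier results of these data known. Members named with values on every array were those past the threshold, the 4 with the largest difference in each of 5 comparisons, the highest mean signal per symbol prefix, and Map2k1, Map2k2, Prkaca, Prkca and Camk2d. Other members given array by array, and both averaged comparisons, were added after their values were seen. Up to 4 genes per list and comparison were named where past the threshold. Alternatives changed the pseudocount, filter, normalization, variance trend and probe sets, left out each replicate, or added a replicate block. Precision is limited by the number of arrays.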

Additional observations from a re-analysis of the deposited data

Results flagged for a closer look

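For 9 kinase genes every treated array lay on one side of the untreated array in FE8 and on the other side in 208F. Up in FE8 and down in 208F were Prkaca (difference of the drug effects 1.29 on the log2 scale), Map3k3 (1.17), Mapk12 (1.12) and Mapk14 (0.52). Down in FE8 and up in 208F were Mapk4 (-0.81), Camk2d (-0.52), Mapk6 (-0.51), Camk2g (-0.42) and Prkcd (-0.17). The 4 and 5 genes were 12.1% and 15.2% of the kinase genes, against 5.71% and 6.27% of all probe sets. The limma test of the difference itself called none of the 9, with adjusted p of at least 0.623. In each line these differences rest on 1 untreated array. The second Prkaca probe set was higher in treated arrays of both lines on average, at 0.38 in 208F, with a difference of 0.30, so the opposite directions were not shared. For Camk2d, 2 of 4 probe sets were higher in treated FE8. For Mapk14, 3 of 6 probe sets gave a positive and 3 a negative difference, and for Prkcd the dimmer probe set had the opposite sign, at 0.41.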

How the results depend on the processing

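All 28 gene results, those called or among the 4 largest differences of each comparison, kept their direction in every alternative run. Of 304 gene values, 260 stayed on the same side of the threshold, 32 lost and 12 gained a call, and 0 reversed. Each gene was read from the same probe set throughout. The filter, variance trend and replicate block cannot change a log2 difference. Leaving out a treated array cannot change an untreated line difference or the drug difference of the other line. In those runs the direction was fixed in advance. The number of kinase genes called in the untreated line comparison, 1 in the reported fit, was 0 with a pseudocount 4 times larger, a filter at the 25th percentile, quantile normalization, a common median, no variance trend and the replicate block, and 0 to 3 when single replicates were left out. Under the drug it was 0, and 0 to 1 without single replicates. The drug count in 208F, 0, was 1 of 54 with all probe sets of the members, and 0 to 1 without single replicates. The drug count in FE8, 3, was 1 with quantile normalization (Map3k12), 0 without the variance trend and 5 of 54 with all probe sets, and 0 to 4 without single replicates. The averaged line count, 2, was 1 with quantile normalization and 1 without the trend, and 0 to 3 without single replicates. The averaged drug count, 3, was 5 with all probe sets and 0 to 4 without single replicates. The difference of the drug effects gave 0 throughout.

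Only the treated groups share replicate numbers. Same-numbered deviations correlated with r = 0.319 over probe sets, but with 2 pairs and no shared batch in the labels the numbers do not establish pairing. With the replicate block the kinase counts were 0 and 0 in the line comparisons, 0 and 3 in the drug comparisons of 208F and FE8, 0 for their difference, and 3 and 3 in the averages of line and drug, where Map3k3 was added to the line average (adjusted p = 0.0454). Over all probe sets the number called without an FE8 treated replicate fell to 76 and 77 in the FE8 drug comparison, from 393, and with either 208F treated replicate left out it was 783 and 779. The cause was not tested. Low signals limit Map4k1, Prkcb, Prkca and Mapk12, whose differences are held down by the pseudocount.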

Other observations

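Averaged over both lines, the drug comparison called pathway partners that passed in neither line alone, against a background of 15.6% of all probe sets. Of 10 measured MAPK phosphatases 5 passed, and 3 of these had passed in neither line: Ptpn7 was higher by 1.06 ± 0.28, Dusp5 was higher by 0.74 ± 0.19, and Ppm1b was lower at -0.69 ± 0.21 (limma adjusted p = 0.0267, 0.0239 and 0.0437). Of 17 measured genes of cyclic AMP handling and PKA partners, 2 were higher in treated arrays, the adenylyl cyclase Adcy3 by 0.99 ± 0.25 and the anchoring protein Akap11 by 0.90 ± 0.21, and 1 was lower, the inhibitory G protein subunit Gnai2 at -0.78 ± 0.19 (limma adjusted p = 0.0202, 0.0147 and 0.0159). Gnai2 was at 3793, 2276 and 2068 in 208F, untreated array first, and 2600, 1392 and 1596 in FE8. Of 16 PKC activators and substrates, Dgka, which turns diacylglycerol into phosphatidic acid, was higher by 0.74 ± 0.21 (limma adjusted p = 0.0397). Pdpk1, which phosphorylates PKC and S6K1, was lower at -1.04 ± 0.31 (limma adjusted p = 0.0447). Pdpk1 was at 140, 13 and 59 in 208F and 139, 22 and 55 in FE8. Its treated signals all lay below the pseudocount of 64. Ptpn7 was at 3, 82 and 105 in 208F and 67, 207 and 151 in FE8, with untreated signals near or below the pseudocount. Of 10 calmodulin targets 1 passed, the calcineurin regulatory subunit Ppp3r1, higher by 0.86 ± 0.25 (limma adjusted p = 0.039). This drug average was chosen after seeing the data, and run day and drug cannot be told apart in it. Besides Dusp1, the line average also called list genes that passed in neither drug state alone, against 11.1% of all probe sets. With the genes already called above, 2 of 18 genes at the level of RAS were higher and 1 lower. Of 16 PKC activators and substrates 1 was higher and 2 lower, and of 10 MAPK phosphatases 2 were higher and 1 lower. Of 17 genes of cyclic AMP handling 1 was lower, and 0 of 10 calmodulin genes passed. Marcks, Add1 and Ywhaq were lower in FE8, at -1.39 ± 0.30, -0.76 ± 0.20 and -0.65 ± 0.19 (limma adjusted p = 0.0125, 0.0285 and 0.0467). Rap1b was higher by 0.95 ± 0.25 (limma adjusted p = 0.0291).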
